A study of Mus musculus with 10 samples.

Results

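The genes examined were 36 genes of glycolysis and of the response to low oxygen, read in CD4+CD25- T cells sorted from breast tumours. They were taken by exact match of the gene name in the deposited expression table, where 36 of 36 names were found among 17363 named genes. By role, the set held 2 glucose transporters, 11 genes of upper glycolysis, 5 of lower glycolysis, 5 of pyruvate and lactate handling, 4 of oxygen sensing and 9 other genes of the hypoxia response. All 36 passed the filter used for testing, at least 10 normalised read counts in at least 2 of the 8 replicates, which 14473 genes passed.

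Glycolysis takes glucose through sugar phosphates and trioses to pyruvate, which lactate dehydrogenase converts to lactate for export or which enters mitochondria. In the presence of oxygen, prolyl hydroxylases mark the transcription factor subunit HIF-1α for destruction by the von Hippel-Lindau ligase, and when oxygen falls HIF-1α is spared and switches on glucose transporters, glycolytic enzymes and mitophagy genes. T cells that become activated also raise glucose uptake and lactate output, so in T cells taken from a tumour these genes are under the control of activation as well as of oxygen.

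The cells came from 23-week-old C57BL/6 mice carrying the PyMT oncogene, whose expression in mammary epithelium gives breast tumours, and every mouse also carried loxP-flanked alleles of Tgfbr2, which encodes a subunit of the TGF-β receptor. WT mice (Tgfbr2fl/flPyMT) had no Cre. KO mice (ThPOKCreTgfbr2fl/flPyMT) had Cre driven from ThPOK, a gene of the CD4 lineage, so the deletion was directed to that lineage rather than to all T cells. IL4-/- mice (Il4-/-Tgfbr2fl/flPyMT) lacked the cytokine gene Il4 and had no Cre, and IL4-/-KO mice (Il4-/-ThPOKCreTgfbr2fl/flPyMT) had both alterations. Each genotype had 2 replicates. Each KO replicate had a first and a repeat library, prepared separately from 1 RNA extraction. Both libraries were counted as 1 replicate, by their mean or, in the tests run on reads, by their sum. Whether the replicates came from separate mice or from pools was not stated in the labels, so the p-values below refer to variation among the sequenced samples only, part of which may be technical. The design thus sets Tgfbr2 deletion beside its control with and without Il4.

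The 10 libraries fell into a shallower set (WT and first KO, 17121030 to 18479090 reads) and a deeper set (all others, 28003231 to 33802781 reads). One read was worth 0.644 to 1.47 normalised counts, and a count of 0 allows up to 1.93 to 4.41 normalised counts (3 reads), which covers counting error only. Of the KO libraries, the repeat of replicate 2 had the fewest detected genes of all 10 (12459). Tgfbr2 reads were present in every genotype, with 7876 and 7894 normalised counts in the WT replicates, 5803 to 9442 over the KO libraries, 13816 and 12544 in IL4-/- and 7762 and 8205 in IL4-/-KO. A whole-gene count includes reads outside a deleted stretch and so checks these labels little. The same holds for Il4, where the IL4-/- and IL4-/-KO replicates had 39.7 to 98.7 normalised counts against 107 and 276 in WT and 236 to 523 over the KO libraries. The 9 CD4 T cell marker genes were above 0 in every library (summed 92171 to 208993), and reads of other cells were present. The 12 epithelial markers, none at 0 in any library, summed to 186982 and 27645 in WT, 77975 to 145462 over the KO libraries, 39037 and 88681 in IL4-/- and 14617 and 44571 in IL4-/-KO. Macrophage markers reached 110366 in IL4-/- replicate 2 against 9288 to 20676 elsewhere, and neutrophil markers 5891 and 6788 in the libraries of KO replicate 1 against 109 to 995 elsewhere. In bulk samples of this kind, fewer cells of a type and less RNA per cell cannot be told apart.

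Levels of expression were set in order per kilobase of the longest transcript, as medians over the 8 replicates in normalised counts per kilobase. Aldoa had 25115, above all other members, but was left out of the order because the annotation holds more than 1 gene model of that name. Of the rest, the highest were Ldha, which makes lactate (21120), Pkm, the pyruvate kinase of most tissues (17315), and Gapdh (12277). Tpi1 (5718), Hif1a (4981) and Gpi1 (3360) came next. The lowest were Hk2 (46.1), Pfkfb4 (64.0), P4ha2 (72.1) and Pfkm (104). Many neighbours in this order overlap in their replicates, since members ranged between replicates from 1.59-fold (Vhl) to 39.9-fold (Aldoc) and 178-fold (P4ha2) from the lowest to the highest.

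**Figure D1:**
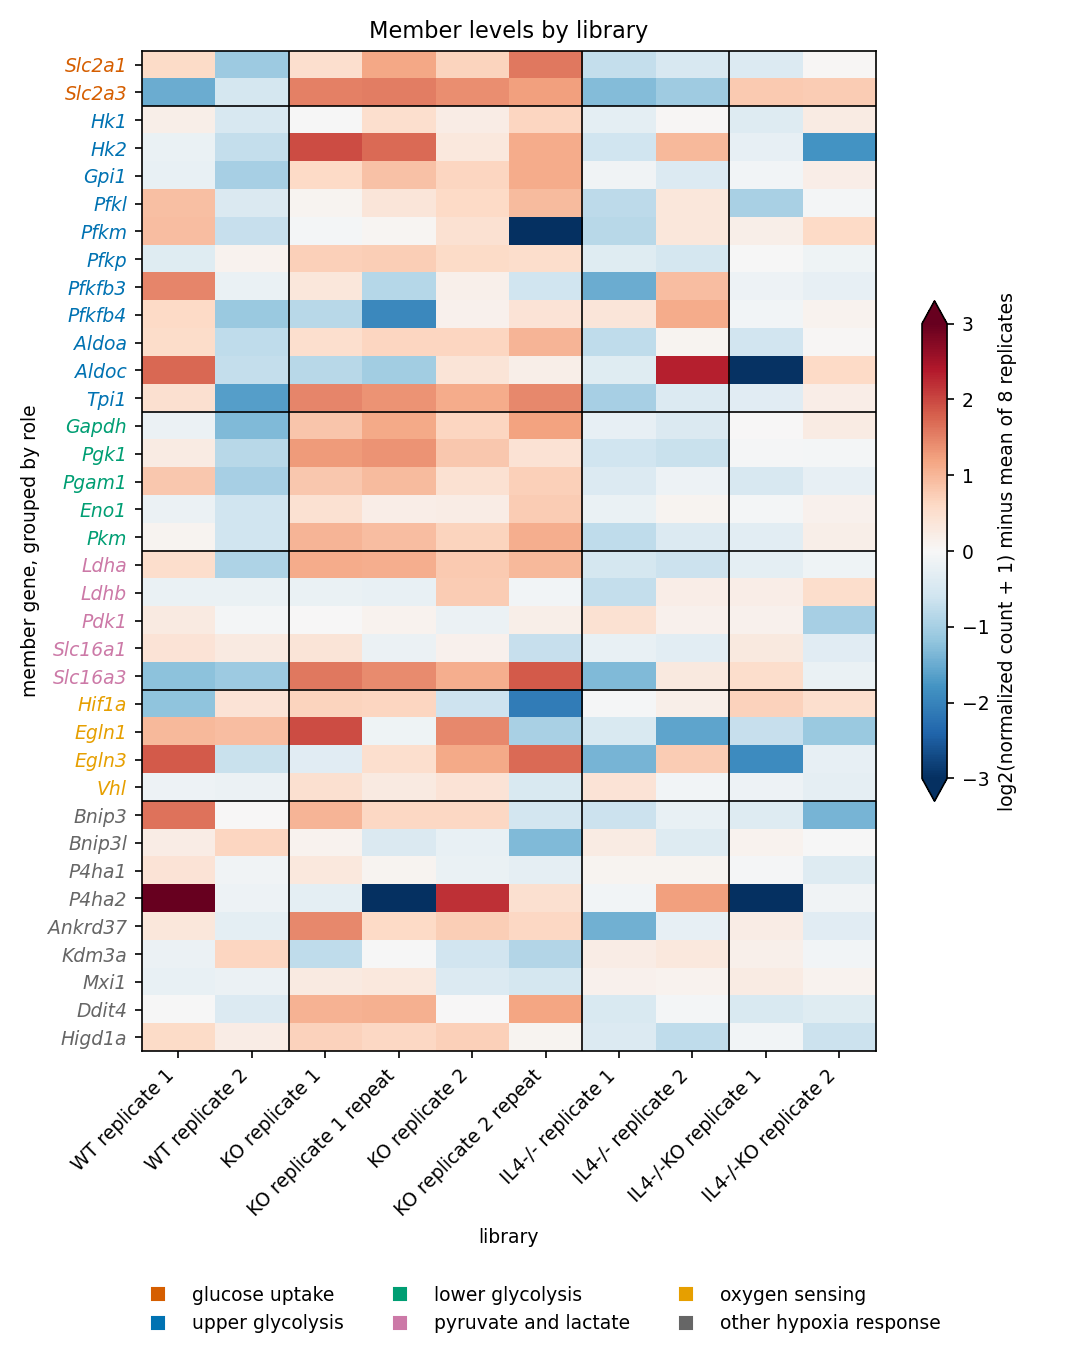
Each of the 36 genes (rows, grouped by role) in each of the 10 libraries (columns), as log2(normalised count + 1) minus the mean of the 8 replicates, with the colour capped at 3 in either direction. Slc2a3 and Slc16a3 are above their mean in every KO library. Egln1 is below its mean in all 4 Il4-deficient replicates and in both repeat KO libraries, which together make up the deeper set.

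Tgfbr2 deletion was first compared between KO and WT, on otherwise intact Il4. The members with the smallest p were Slc2a3, a glucose transporter (log2 difference 2.42 ± 0.35, SE), Slc16a3, a lactate exporter (2.68 ± 0.53), Gpi1 of upper glycolysis (1.43 ± 0.35) and Gapdh of lower glycolysis (1.72 ± 0.42), all with higher means in KO. Of the 36 genes 25 were higher in KO, with a median log2 difference of 0.33 beside -0.07 over all genes tested. No member passed an adjusted p of 0.05 in limma, where 0.00691% of all genes did. At an unadjusted p of 0.05, limma called 11 members higher, where 5.19% of all genes were called, and 1 lower, where 6.9% were. The KO and WT replicates did not overlap for 17 higher members (17.5% of all genes) and 3 lower ones (20.1%). DESeq2, run on the reads recovered from the table, called 6 members higher at an adjusted p of 0.05 (1.86% of all genes): Slc2a3, Slc16a3, Gpi1, Gapdh, Pkm and Ddit4. It called none lower (2.17%). edgeR's quasi-likelihood test called none (0% of all genes).

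The WT replicates were far apart for much of the set, which limits this comparison. The member median was 0.72 without WT replicate 1 and 0.18 without WT replicate 2, and 0.60 and 0.52 without KO replicates 1 and 2. The 12 unadjusted calls became 6 without WT replicate 2, 7 without KO replicate 1 and 6 without KO replicate 2. Without only the repeat library of KO replicate 2, the median was 0.45. WT lies wholly in the shallower set, whereas each KO replicate joins a shallower and a deeper library. The member median was 0.54 with the first KO libraries only and 0.47 with the repeat KO libraries only. In the same comparison 9 of 12 epithelial markers were higher in KO (median 0.45), as were 9 of 9 CD4 T cell markers (0.68) and 6 of 6 tested neutrophil markers (3.12). With an epithelial covariate, the mean of log2(normalised count + 1) over the 12 epithelial markers, the member median was 0.38. The part of the CD4 T cell and neutrophil markers was not tested.

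On the Il4-deficient background, IL4-/-KO was compared with IL4-/-. Slc2a3 was again higher (log2 difference 1.96 ± 0.35), and of the 36 genes 23 were higher, with a median of 0.10 beside -0.03 over all genes. limma called no member at an adjusted p of 0.05 (0% of all genes), and at an unadjusted p of 0.05 it called 1 member higher, Slc2a3 (1.3% of all genes), and none lower (1.96%). Replicates did not overlap for 10 higher members (16.8% of all genes) and 5 lower ones (16.2%). DESeq2 called 1 member higher, Slc2a3, with an adjusted p of 0.00107 (0.0898% of all genes), and none lower (0.263%), and edgeR called none (0%). Here 11 of 12 epithelial markers were lower in IL4-/-KO (median -0.55) while 9 of 9 CD4 T cell markers were higher (0.39), and 12 of 12 macrophage markers were lower (-1.23). With the epithelial covariate the member median was 0.20, and it was 0.0049 without IL4-/- replicate 1 and 0.22 without IL4-/- replicate 2. The 1 unadjusted call became 3 without IL4-/-KO replicate 2 and 2 without IL4-/-KO replicate 1 or IL4-/- replicate 2.

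Altogether 9 members were higher without overlap in both deletion comparisons (5.67% of all genes): Slc2a1, Slc2a3, Gpi1, Pfkp, Tpi1, Gapdh, Pgk1, Pkm and Ldha. Kdm3a, a histone demethylase induced by HIF, was the 1 member lower without overlap in both (4.63%). These comparisons use different controls and share no library. In single libraries KO and WT overlapped for Slc2a1, where the first library of KO replicate 1 had 5529 against 5804 in WT replicate 1, and for Kdm3a, where the repeat library of KO replicate 1 had 2802 against 2471 in WT replicate 1. For the other 8 members all 4 KO libraries lay above both WT libraries.

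The mean of both deletion effects, fitted over all 8 replicates, gave limma no member at an adjusted p of 0.05, where 0.0207% of all genes passed. At an unadjusted p of 0.05 it called 9 members higher (4.66% of all genes) and none lower (5.21%). In order of p these were Slc2a3, Slc16a3, Gapdh, Gpi1, Pgk1, Tpi1, Pkm, Pfkp and Slc2a1. DESeq2 called 5 higher (1.17% of all genes), namely Slc2a3, Slc16a3, Gapdh, Gpi1 and Pkm, and none lower (1.25%), and edgeR called none (0.0138%). All 4 deleted replicates lay above all 4 others for Slc2a3, Gapdh and Gpi1 (2.98% of all genes), and no member lay below in this way (2%). The member median was 0.28 beside -0.08 over all genes, and it was 0.11 without WT replicate 2, 0.13 without KO replicate 1 and 0.43 without WT replicate 1. The 9 unadjusted calls became 5 without KO replicate 1. In the same mean effect 9 of 9 CD4 T cell markers (median 0.56) and 5 of 6 tested neutrophil markers (1.65) were higher, and 11 of 12 macrophage (-0.80) and 8 of 12 epithelial markers (-0.16) were lower. With the epithelial covariate the member median was 0.27, and the part of the other markers was not tested.

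**Figure D2:**
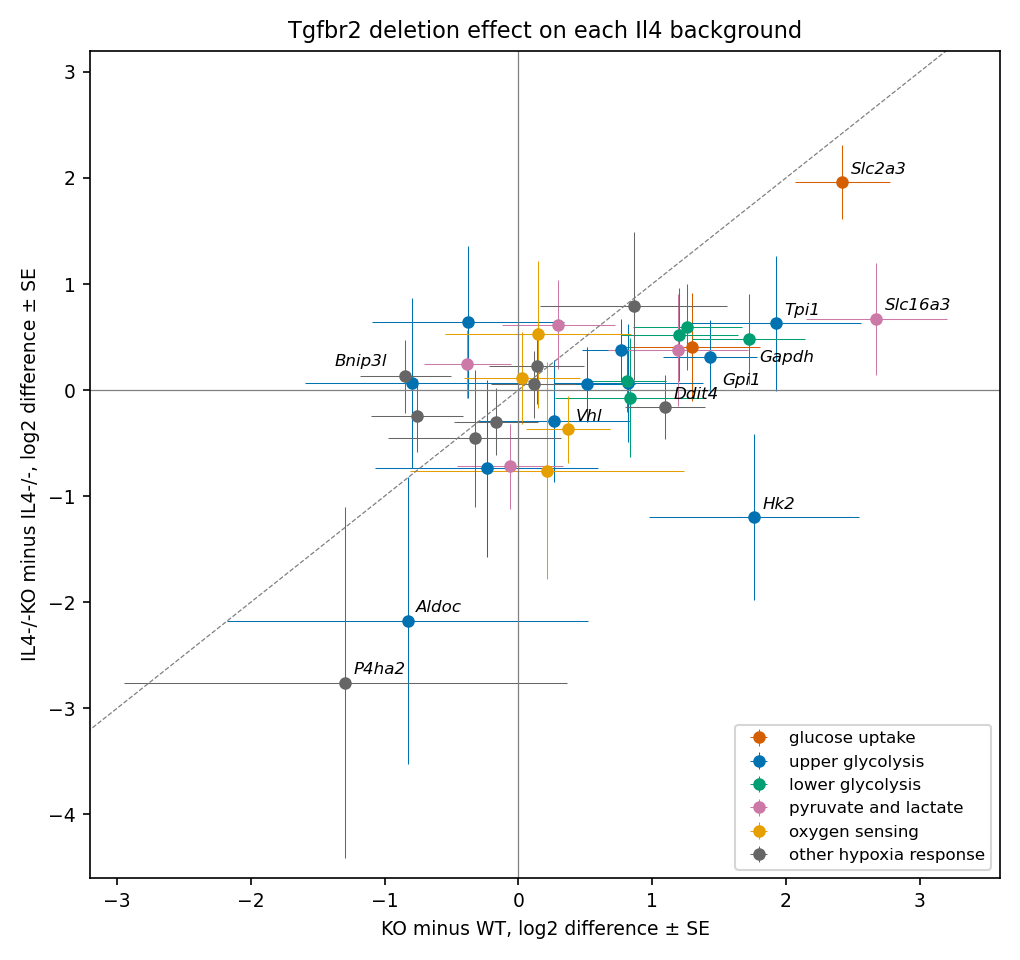
Log2 difference KO minus WT (horizontal) against IL4-/-KO minus IL4-/- (vertical) for each of the 36 genes, coloured by role, with bars of 1 standard error and a dashed line of equality. Slc2a3 is high on both axes (2.42 and 1.96), whereas Slc16a3 (2.68 and 0.67) and Ddit4 (1.10 and -0.16) lie well below the line.

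Glucose uptake is the entry to the pathway. Slc2a3, which encodes the high-affinity glucose transporter GLUT3 (chr6:122727809-122801640, minus strand, mm10), had 1433 and 2761 normalised counts in the WT replicates, 11519 and 9899 in KO, 1614 and 1911 in IL4-/- and 6945 and 6752 in IL4-/-KO. All 4 deleted replicates lay above all 4 replicates without Cre, and the 2 KO replicates lay above the 2 IL4-/-KO replicates. The genotype means were 2097 ± 939 (SD, n = 2) in WT, 10709 ± 1146 in KO, 1763 ± 210 in IL4-/- and 6848 ± 136 in IL4-/-KO. The mean deletion effect was 2.19 ± 0.25 on the log2 scale, the 4th smallest p of 14473 genes, with a limma adjusted p of 0.0893. The 4 KO libraries had 9322 to 11619, so the first and repeat libraries of a replicate were close together. Leaving out 1 replicate at a time gave effects from 1.96 to 2.43 with limma adjusted p from 0.0224 (without WT replicate 2) to 0.483.

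Slc2a1, the widely expressed transporter GLUT1 (chr4:119108711-119137983, plus strand), had 5804 and 1847 in WT, 7176 and 9010 in KO, 2385 and 2832 in IL4-/- and 2953 and 4034 in IL4-/-KO. WT replicate 1, which had the most epithelial reads, was higher in Slc2a1 than both IL4-/-KO replicates, so the deleted and undeleted replicates overlapped. The KO libraries had 5529 and 6225 in the first set and 8823 and 11796 in the repeats. Its mean deletion effect was 0.85 ± 0.36 (limma adjusted p 0.505).

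In upper glycolysis, 7 of 11 genes were higher in KO than in WT (median 0.52, from -0.83 to 1.93) and 7 of 11 in IL4-/-KO than in IL4-/- (median 0.07). Gpi1, the isomerase that turns glucose 6-phosphate into fructose 6-phosphate (chr7:34201330-34230336, minus strand), had 8930 and 5182 normalised counts in the WT replicates, 17427 and 19349 in KO, 9637 and 7836 in IL4-/- and 9746 and 11873 in IL4-/-KO. KO was clearly highest, and the lower IL4-/-KO replicate was close to the higher IL4-/- replicate. Its mean deletion effect was 0.87 ± 0.25 (limma adjusted p 0.384).

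Tpi1, which interconverts the trioses (chr6:124810586-124814296, minus strand), had 13323 and 3015 in WT, 25067 and 23191 in KO, 4754 and 7160 in IL4-/- and 7506 and 10871 in IL4-/-KO. KO lay above every other replicate, and WT replicate 1 lay above both IL4-/-KO replicates. The mean effect was 1.28 ± 0.45 (limma adjusted p 0.446), and from 0.74 to 1.81 with 1 replicate left out.

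Pfkp, the platelet isoform of phosphofructokinase (chr13:6579768-6648777, minus strand), had 6855 and 9510 in WT, 14550 and 12947 in KO, 6860 and 6102 in IL4-/- and 8727 and 8102 in IL4-/-KO. WT replicate 2 exceeded both IL4-/-KO replicates. The mean effect was 0.57 ± 0.21 (limma adjusted p 0.464). The Pfkp locus overlaps Pitrm1 on the opposite strand, and without strand information reads in the overlap cannot be told apart.

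Hk2, the inducible hexokinase (chr6:82725025-82774454, minus strand), had 257 and 181 normalised counts in the WT replicates, 1060 and 508 in KO, 195 and 580 in IL4-/- and 251 and 85.2 in IL4-/-KO. The order of deleted and undeleted replicates thus differed between the backgrounds: both KO replicates were above WT, and IL4-/-KO overlapped IL4-/-. Hk1, the constitutive isoform, stayed within 4892 to 9310 over all 8 replicates.

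Aldoc, an aldolase isoform best known from brain, was the most variable glycolytic enzyme, with 9069 and 1670 in WT, 1441 and 3338 in KO, 2132 and 13878 in IL4-/- and 348 and 4164 in IL4-/-KO. Replicates of WT and of IL4-/- differed from each other by more than the genotype means did. The IL4-/-KO minus IL4-/- difference of -2.17 ± 1.35 had an unadjusted limma p of 0.147. In each genotype the replicate with more epithelial reads had the higher Aldoc count. The same order held for Slc2a1, Hk1, Pfkl, Pfkfb4, Aldoa, Eno1, Ldhb, Egln3 and P4ha2, and for no other member. What part those reads had in these levels was not tested. Aldoa, the main aldolase, ranged from 21816 to 66980 with KO highest in replicate 2 and WT replicate 1 (54409) close to KO replicate 1 (55407). Pfkl ranged from 3451 to 12692 and Pfkm from 156 to 535. For Pfkm the first library of KO replicate 2 had 383 and the repeat 6.62. Pfkfb3 ranged from 315 to 2436 and Pfkfb4 from 79.5 to 424. The last 2 encode the enzymes that set the level of fructose 2,6-bisphosphate, the activator of phosphofructokinase, and their differences in KO minus WT were -0.79 and -0.24 with overlapping replicates.

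In lower glycolysis all 5 genes were higher in KO than in WT (median 1.20, from 0.81 to 1.72) and 4 of 5 in IL4-/-KO than in IL4-/- (median 0.48). Their summed counts were 69881 and 40105 in WT, 135456 and 127781 in KO, 45858 and 51698 in IL4-/- and 59691 and 78068 in IL4-/-KO. KO had the highest sum in both replicates, and IL4-/-KO overlapped WT.

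Gapdh, glyceraldehyde 3-phosphate dehydrogenase (chr6:125161715-125166467, minus strand), had 16300 and 7321 in WT, 36489 and 35592 in KO, 15470 and 13549 in IL4-/- and 18566 and 21953 in IL4-/-KO. All deleted replicates lay above all others, with a mean effect of 1.10 ± 0.30 (limma adjusted p 0.372). Gapdh has 73 near-identical genes in the annotation (95% identity over 300 bases or more), so its count is uncertain by the reads they share.

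Pgk1, phosphoglycerate kinase, the first ATP-yielding step (chrX:106187100-106203699, plus strand), had 2731 and 1303 in WT, 5739 and 3582 in KO, 1521 and 1451 in IL4-/- and 2271 and 2212 in IL4-/-KO. Only WT replicate 1 among the undeleted replicates exceeded a deleted one. The mean effect was 0.93 ± 0.29 (limma adjusted p 0.422).

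Pkm, pyruvate kinase (chr9:59656368-59679375, plus strand), had 47732 and 29838 in WT, 89332 and 84684 in KO, 26611 and 33997 in IL4-/- and 36487 and 51180 in IL4-/-KO. WT replicate 1 again lay among the IL4-/-KO values. The mean effect was 0.86 ± 0.31 (limma adjusted p 0.461). Eno1, enolase, ranged from 1209 to 2614 and Pgam1, phosphoglycerate mutase, from 434 to 1592, and both had their highest replicate in KO. Tpi1, Pgk1, Pgam1, Pkm, Eno1, Ldha and Ldhb have 1 to 4 near-identical genes each, and of the response genes Bnip3 has 5 and Bnip3l and Higd1a 1 each, so that their counts carry the same uncertainty.

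**Figure D3:**
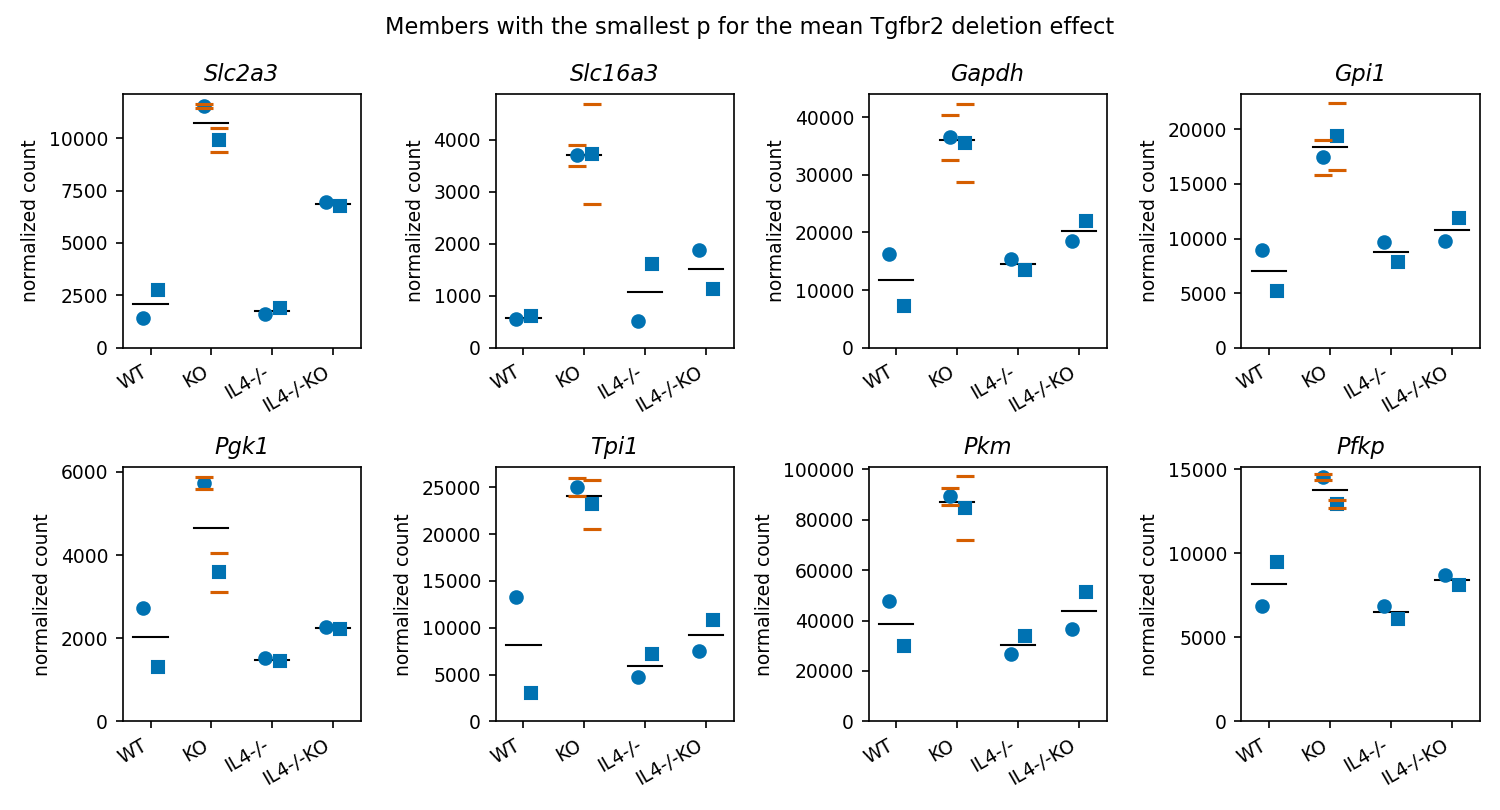
Normalised read counts per genotype of the 8 members that came first by p in the mean deletion effect (circles replicate 1, squares replicate 2, black bars genotype means, orange dashes the 2 libraries of each KO replicate). KO is highest in every panel, and IL4-/-KO stands clear of WT only for Slc2a3, Gapdh, Gpi1 and Slc16a3.

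Of the 5 pyruvate and lactate genes, 3 were higher in KO than in WT (median 0.30) and 4 in IL4-/-KO than in IL4-/- (median 0.38). Slc16a3, which encodes the lactate exporter MCT4 (chr11:120948480-120960868, plus strand), had 551 and 610 in WT, 3702 and 3725 in KO, 523 and 1607 in IL4-/- and 1876 and 1140 in IL4-/-KO. KO lay far above the rest, and IL4-/- replicate 2, the replicate with the most macrophage reads, lay between the IL4-/-KO replicates, and the part of those reads in its level was not tested. The mean deletion effect was 1.68 ± 0.37 (limma adjusted p 0.297). The KO libraries ranged from 2770 to 4680. Slc16a1, the importer and exporter MCT1, had 2364 and 2143 in WT, 1952 and 1532 in KO, 1527 and 1429 in IL4-/- and 2190 and 1400 in IL4-/-KO, so the WT replicates were above those of KO and IL4-/-, although the first library of KO replicate 1 (2332) lay between the WT values.

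Ldha ranged from 23267 (WT replicate 2) to 94577 (KO replicate 1), and both IL4-/-KO replicates (36313 and 40354) were above both IL4-/- replicates (30862 and 28164). WT replicate 1 had 63184, and the KO minus WT difference was 1.19 ± 0.53 with an unadjusted limma p of 0.0534. Ldhb, whose enzyme favours the reverse reaction, stayed within 562 to 1340. Pdk1, the kinase that shuts pyruvate out of mitochondria, had 3061 and 2421 in WT, 2653 and 2559 in KO, 3470 and 2754 in IL4-/- and 2777 and 1267 in IL4-/-KO. The last value stood apart from the other 7, and the IL4-/-KO minus IL4-/- difference was -0.72 ± 0.40 with an unadjusted limma p of 0.109.

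Promoters are shown for the 4 members that came first by p in the mean deletion effect and had a window in RefSeq (GRCm38.p6), so that the HIF core motif can be seen beside the values above. Slc2a3 has no window in that table. Each line gives 250 bases up to the transcription start, 5′ to 3′ on the gene's strand, in lower case with the HIF core motifs ACGTG and GCGTG in capitals on either strand (the reverse complements are CACGT and CACGC).
Slc16a3, chr11:120948817-120949066, plus strand: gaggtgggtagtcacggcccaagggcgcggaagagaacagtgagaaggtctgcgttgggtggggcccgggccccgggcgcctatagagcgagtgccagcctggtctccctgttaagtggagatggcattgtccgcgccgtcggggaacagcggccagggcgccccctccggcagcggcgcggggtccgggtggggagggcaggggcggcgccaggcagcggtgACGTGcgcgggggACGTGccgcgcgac
Gapdh, chr6:125165774-125166023, minus strand: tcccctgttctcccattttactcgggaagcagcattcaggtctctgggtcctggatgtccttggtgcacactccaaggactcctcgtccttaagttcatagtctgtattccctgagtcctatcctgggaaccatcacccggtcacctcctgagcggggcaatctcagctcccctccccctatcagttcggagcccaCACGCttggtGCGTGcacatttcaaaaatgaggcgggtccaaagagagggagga
Gpi1, chr7:34230337-34230586, minus strand: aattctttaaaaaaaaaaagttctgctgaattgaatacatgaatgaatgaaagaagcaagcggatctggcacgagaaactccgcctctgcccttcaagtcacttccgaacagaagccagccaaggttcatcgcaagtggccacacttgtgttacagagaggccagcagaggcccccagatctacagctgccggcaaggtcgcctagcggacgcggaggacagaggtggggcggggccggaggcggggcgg
Pgk1, chrX:106186850-106187099, plus strand: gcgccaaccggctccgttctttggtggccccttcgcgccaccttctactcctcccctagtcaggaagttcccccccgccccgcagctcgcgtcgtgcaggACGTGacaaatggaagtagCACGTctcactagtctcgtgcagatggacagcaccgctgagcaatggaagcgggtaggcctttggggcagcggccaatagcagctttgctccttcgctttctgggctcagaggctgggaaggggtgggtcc
The first base of each core lies 27 and 14 bases before the start in Slc16a3, 54 and 44 in Gapdh, and 150 and 131 in Pgk1. The Gpi1 window holds none of these letters, although Gpi1 was among the 3 members with all deleted replicates above all others. Windows of 300 bases ran from 250 before to 50 after the start, and a gene counted if any of its windows held a match. By gene, 31 of 34 members with a window held ACGTG or GCGTG, against 46.7% of 27025 genes. By window, 78.4% of 51 member windows did, against 43.8% of all 32851. The E-box CACGTG, which contains ACGTG, was in 6 of 34 members against 8.1% of genes, and in 11.8% of member windows against 7.2% of all. The member windows had a median GC content of 63.3% against 52.7% over all windows, and a match is a description of letters, not of binding. The members were listed for their roles in glycolysis and the hypoxia response. The genes beside them are all those with a window, whether or not they passed the filter. These shares are therefore no test of the members.

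Of the 4 oxygen sensing genes, 4 were higher in KO than in WT by 0.02 to 0.37 (median 0.18) and 2 in IL4-/-KO than in IL4-/- (median -0.13), and limma called none of them in either comparison. This direction was not firm for all 4. For Egln1 the first KO libraries lay above both WT replicates and the repeats below them. The mean count of Egln3 was lower in KO (2923) than in WT (3190). Hif1a had 8230 and 25399 in WT, 30298 and 8467 in KO, 18525 and 21661 in IL4-/- and 30998 and 26927 in IL4-/-KO. Replicates of WT and of KO differed from each other by more than the genotype means did. HIF-1α is controlled largely at the protein level, which these data do not measure. Egln3, a hydroxylase gene that HIF itself induces, ranged from 410 to 5419 and was highest in WT replicate 1. Vhl, the substrate receptor of the ligase, was the 1 member whose replicates did not overlap in opposite directions, higher in KO than in WT and lower in IL4-/-KO than in IL4-/- (3.7% of all genes).

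Egln1, the main oxygen-sensing hydroxylase (chr8:124908587-124949324, minus strand), had 2594 and 2530 in WT, 3172 and 2139 in KO, 958 and 439 in IL4-/- and 812 and 609 in IL4-/-KO. All Il4-deficient replicates lay below all others. The first and repeat KO libraries of 1 RNA differed, with 5128 against 1216 in replicate 1 and 3605 against 673 in replicate 2. Egln1 was the 1 member whose shallower libraries (2530 to 5128) and deeper libraries (439 to 1216) did not overlap, as for 1.69% of all genes.

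The response genes that are not part of glycolysis had a median of -0.17 in KO minus WT, with 4 of 9 higher. Ddit4, an inhibitor of mTORC1 signalling (chr10:59949669-59951834, minus strand), had 2508 and 1912 in WT, 5275 and 4162 in KO, 1853 and 2456 in IL4-/- and 1860 and 1964 in IL4-/-KO. As means of their libraries both KO replicates lay above the other 6 replicates (1853 to 2508). The libraries of KO replicate 1 were alike (5247 and 5302), but those of replicate 2 had 2544 in the first and 5780 in the repeat, so without the repeat library this replicate lies next to WT replicate 1. KO minus WT was 1.10 ± 0.30 (limma adjusted p 0.345).

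Higd1a, a mitochondrial protein induced by hypoxia (chr9:121848563-121858362, minus strand), had 1454 and 1153 in WT, 1536 and 1322 in KO, 736 and 581 in IL4-/- and 933 and 627 in IL4-/-KO. Bnip3, a mitophagy receptor (chr7:138890836-138909519, minus strand), had 1521 and 494 in WT, 877 and 545 in KO, 312 and 421 in IL4-/- and 373 and 187 in IL4-/-KO. For both genes the Il4-deficient replicates, all of the deeper library set, lay below the other replicates. In single libraries the repeat of KO replicate 2 had 332 for Bnip3, within the Il4-deficient range, and 1045 for Higd1a, above it. P4ha2, a collagen prolyl hydroxylase, varied widely within genotypes. Replicates 1 and 2 of WT stood at 1456 and 156, and those of KO averaged 71.3 and 524. The IL4-/- replicates gave 164 and 412, and the IL4-/-KO replicates 8.17 and 162. In normalised counts the WT replicates lay further apart than any 2 genotype means. Libraries of 1 KO RNA also disagreed: the first and repeat gave 143 and 0 for replicate 1, and 804 and 245 for replicate 2. The KO spread thus includes differences between libraries of 1 RNA.

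Bnip3l and Kdm3a, both HIF targets, were lower in KO without overlap as replicate means (2186 and 1515 against 2808 and 3800 for Bnip3l, and 2223 and 1710 against 2471 and 4404 for Kdm3a). Bnip3l, also a mitophagy receptor, was the 1 member with an unadjusted call in the lower direction, at -0.84 ± 0.34. Over the 8 replicates P4ha1, a collagen prolyl hydroxylase, ranged from 1659 to 2878, Mxi1, a Myc antagonist, from 1958 to 3330, and Ankrd37 from 64.0 to 374.

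The Il4 comparison within deleted cells set IL4-/-KO against KO. Most members were lower in IL4-/-KO, 28 of 36, with a median of -0.85 beside -0.07 over all genes tested. limma called none at an adjusted p of 0.05 (0% of all genes), and at an unadjusted p of 0.05 it called 8 lower (3.13% of all genes) and none higher (8.53%). Replicates did not overlap for 23 lower members (23.3% of all genes) and 3 higher ones (22.8%). DESeq2 called 2 lower, Egln1 and Ddit4 (0.792% of all genes), and none higher (2.09%), and edgeR none (0%). By role the medians were -0.93 for glucose uptake, -0.77 for upper glycolysis, -1.01 for lower glycolysis, -0.47 for pyruvate and lactate, -1.14 for oxygen sensing and -0.90 for the other response genes.

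The 4 members with the smallest p were Egln1 (-1.89 ± 0.43), Ddit4 (-1.29 ± 0.30), Hk2 (-2.32 ± 0.79) and Slc16a3 (-1.34 ± 0.53), with limma adjusted p of 0.321, 0.321, 0.365 and 0.399. Slc2a3 was lower by less, -0.64 ± 0.35, with an unadjusted limma p of 0.107. Against the repeat KO libraries alone, which like IL4-/-KO belong to the deeper set, Egln1 differed by -0.36 and Ddit4 by -1.53, and against the first libraries alone by -2.61 and -0.93. All 12 epithelial markers were lower in IL4-/-KO (median -1.97), and with the epithelial covariate the member median was -0.38. Neutrophil markers were lower too, 6 of 6 tested (median -4.04), as were 7 of 9 CD4 T cell markers (-0.36), and the part of these in the result was not tested. The 8 unadjusted calls became 16 without either WT replicate, 5 without either IL4-/- replicate, 3 without KO replicate 1 or IL4-/-KO replicate 2, and 4 without KO replicate 2.

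**Figure D4:**
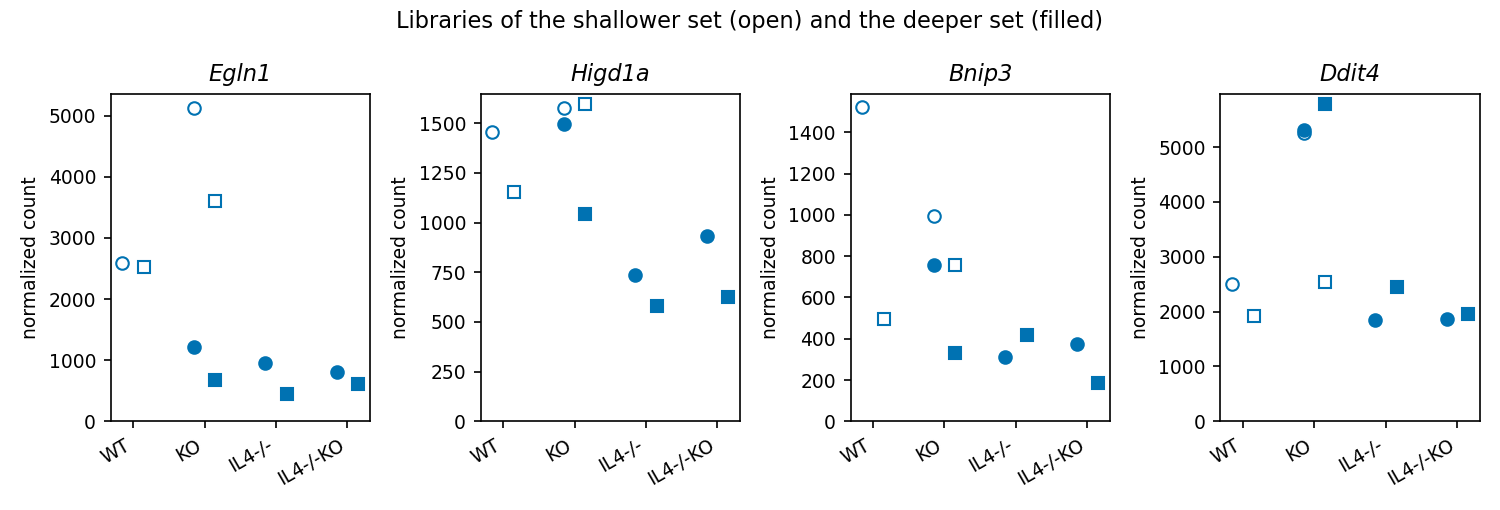
Normalised read counts of Egln1, Higd1a, Bnip3 and Ddit4 in each of the 10 libraries (open symbols the shallower set, filled symbols the deeper set, circles replicate 1, squares replicate 2). Egln1 splits by set, the repeat KO libraries (1216 and 673) lying near the Il4-deficient ones, whereas Ddit4 is high in 3 KO libraries (5247, 5302 and 5780) and 2544 in the first library of KO replicate 2.

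Between the controls, IL4-/- minus WT, limma called no member at an adjusted p of 0.05 (0% of all genes), and 2 lower at an unadjusted p of 0.05 (1.46% of all genes) with none higher (2.63%). DESeq2 called none higher (0.169% of all genes) and none lower (0.0587%), and edgeR none (0%). The 2 limma calls were Egln1 (-1.98 ± 0.43) and Higd1a (-0.98 ± 0.36). Bnip3 (-1.26 ± 0.65) and Slc16a1 (-0.61 ± 0.32) followed, and these 4 were the members lower without overlap (14.6% of all genes), with 2 higher, Vhl and Mxi1 (14.7%). The member median was -0.18 beside 0.01 over all genes, and it was 0.31 without WT replicate 1, -0.49 without WT replicate 2, 0.093 without IL4-/- replicate 1 and -0.31 without IL4-/- replicate 2. It was -0.055 with the epithelial covariate, -0.062 with quantile normalisation, -0.33 by DESeq2 and -0.32 by edgeR. Beside it 11 of 12 macrophage markers were higher in IL4-/- (median 2.07), and 10 of 12 epithelial (-0.50) and 5 of 6 tested neutrophil markers (-1.73) were lower, and the part of the macrophage and neutrophil markers was not tested. WT lies wholly in the shallower set and IL4-/- in the deeper, so for these genes genotype and library set cannot be told apart. The unadjusted calls numbered 8 without WT replicate 2.

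Whether deletion acted differently on the backgrounds was tested as the interaction, the IL4-/-KO minus IL4-/- difference less the KO minus WT difference. Its median over members was -0.61 beside 0.00 over all genes, with 27 of 36 below 0. Also below 0 were 11 of 12 epithelial markers (median -1.05), 11 of 12 macrophage markers (-1.57) and 5 of 6 tested neutrophil markers (-3.04). With the epithelial covariate the member median was -0.18, and the part of the macrophage and neutrophil markers was not tested. limma called no member at an adjusted p of 0.05 (0% of all genes), and at an unadjusted p of 0.05 it called 3 lower (1.84% of all genes) and none higher (1.68%). DESeq2 called none higher (0.0345% of all genes) and none lower (0.207%), and edgeR none (0%). The 3 limma calls were Ddit4 (-1.26 ± 0.42), Slc16a3 (-2.01 ± 0.75) and Hk2 (-2.96 ± 1.11), each with a limma adjusted p of 0.988. Gpi1 came next at -1.12 ± 0.49, and Slc2a3 differed by -0.46 ± 0.50. The median was -0.94 without WT replicate 1, -0.089 without WT replicate 2 and -0.34 without IL4-/- replicate 2. The calls numbered 9 without WT replicate 1, 1 without KO replicate 1 and 0 without replicate 2 of IL4-/- or of IL4-/-KO.

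Ratios between related members within a replicate, which cancel a shared change of the pair, were taken for 9 pairs. No pair separated all deleted from all undeleted replicates. The log2 ratio of Slc16a3 to Slc16a1 was -2.10 and -1.81 in WT, 0.92 and 1.28 in KO, -1.54 and 0.17 in IL4-/- and -0.22 and -0.30 in IL4-/-KO. KO was highest and WT lowest, and IL4-/- replicate 2 exceeded IL4-/-KO. The log2 ratio of Slc2a3 to Slc2a1 was -2.02 and 0.58 in WT, 0.68 and 0.14 in KO, -0.56 and -0.57 in IL4-/- and 1.23 and 0.74 in IL4-/-KO, so WT replicate 2 lay within the deleted values. Per kilobase, Ldha exceeded Ldhb by 18.9-fold to 84.6-fold in every replicate.

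**Figure D5:**
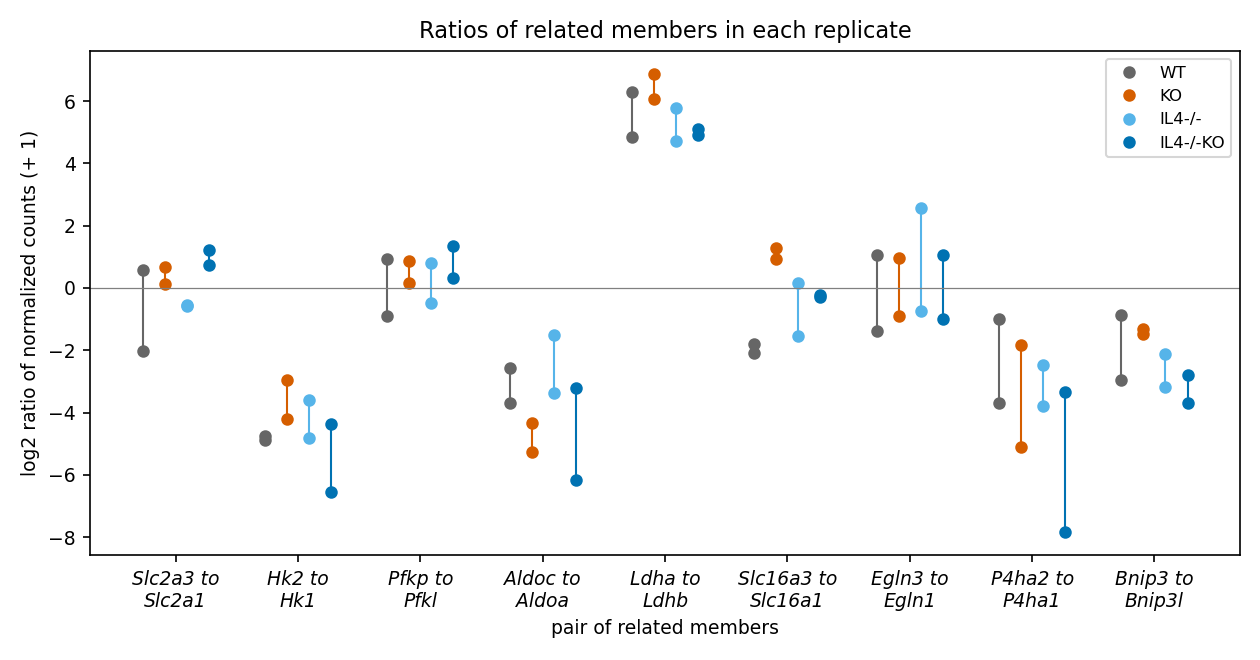
Log2 ratio of normalised counts + 1 for 9 pairs of related members (horizontal), with 1 point per replicate and a line joining the replicates of a genotype. Slc16a3 to Slc16a1 is above 0 in both KO replicates (0.92 and 1.28) and lowest in the WT replicates (-2.10 and -1.81).

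Other genes around the pathway, in lists set out beside the members, were read in KO minus WT. limma called none of them at an adjusted p of 0.05. In the pentose phosphate pathway, which branches from glucose 6-phosphate, 6 of 7 genes were higher (median 0.59), 2 of them at an unadjusted p of 0.05. Pgls, the lactonase of that pathway, had 1863 and 647 in WT against 2710 and 3695 in KO (1.53 ± 0.52), and Pgd, its second dehydrogenase, had 2365 and 1454 in WT against 3059 and 3900 in KO (0.90 ± 0.35). Of 12 genes for pyruvate entry into mitochondria 10 were lower (median -0.37), none of them higher at an unadjusted p of 0.05 and 1 lower. That gene was Dld, a shared subunit of the dehydrogenase complexes, with 2199 and 2732 in WT against 1854 and 744 in KO (-1.06 ± 0.43).

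Other HIF targets gave 8 higher and 9 lower of 17 tested (median -0.11). Hilpda, a lipid droplet protein induced by hypoxia, had 2122 and 1517 in WT, 7950 and 6912 in KO, 1196 and 1199 in IL4-/- and 2546 and 1293 in IL4-/-KO. KO alone was high, with differences of 2.05 ± 0.38 against WT (limma adjusted p 0.265) and -2.03 ± 0.38 for IL4-/-KO against KO (0.321). Pfkfb2, which is in this list and in that of the other isoforms, had 444 and 300 in WT against 108 and 34.2 in KO (-2.56 ± 0.78).

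Among 12 other isoforms and regulators of glycolysis 5 were higher and 7 lower (median -0.22). Slc2a8, an intracellular glucose transporter, had 552 and 668 in WT against 1180 and 2073 in KO (1.36 ± 0.41). Other HIF regulators gave 5 higher and 7 lower of 12 (median -0.15). Among them Cul2, the scaffold of the von Hippel-Lindau ligase, had 1221 and 3410 in WT against 1030 and 404 in KO (-1.66 ± 0.58), and Epas1, which encodes HIF-2α, had 225 and 139 in WT against 710 and 381 in KO (1.55 ± 0.60). Among 12 Myc and mTOR regulators 9 were higher (median 0.17). Prkaa1, a catalytic subunit of the energy sensor AMPK, had 1345 and 2062 in WT against 807 and 790 in KO (-1.06 ± 0.33), and Akt2 had 1902 and 2510 in WT against 3548 and 4718 in KO (0.90 ± 0.30).

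Across genes the KO minus WT difference had a Spearman correlation of -0.22 with transcript length, as a description over genes that share libraries. The correlation was -0.15 for IL4-/-KO minus IL4-/- and -0.23 for the mean effect. It was positive for IL4-/-KO minus KO (0.28), IL4-/- minus WT (0.24) and the interaction (0.12). With that length trend taken out of each replicate the member median was 0.40 in KO minus WT, 0.17 in IL4-/-KO minus IL4-/- and -0.84 in IL4-/-KO minus KO, and the mean effect on Slc2a3 was 2.46 with a limma adjusted p of 0.0109. The median transcript length was 3227 bases for members and 3274 bases over all genes.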

How the data were processed

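RNA was sequenced from 10 libraries of 8 replicates (SMART-Seq v4 and KAPA Hyper Prep, per the labels' protocols). Per the submitters' processing notes the tools were bcl2fastq 2.18.0, STAR and DESeq2 with the mm10 genome; the counter, annotation and strand setting are not given in the sources used here. The deposited table holds normalised signal: read counts per gene divided, as the values show, by 1 size factor per library. Dividing each library by its smallest step gave whole reads for 100% of values (within 0.001 reads), so the depth could be recovered and DESeq2 1.42.0 and edgeR 4.0.16 were run on those reads as alternatives. Of 17370 rows, 7 without a gene name (0.0029% to 0.0205% of reads) were left out.

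The 2 libraries of each KO replicate were averaged on the normalised scale for limma, and their reads were summed for DESeq2 and edgeR. log2(normalised count + 1) was fitted over all 8 replicates with limma 3.58.1 (trended prior, R 4.3.3, 4 residual degrees of freedom), with Benjamini-Hochberg adjustment over 14473 genes in each of 6 comparisons. Fold changes on this scale understate those of low genes. Counts are normalised read counts throughout, without molecular identifiers. Members and gene lists were chosen with earlier results of these data known. Values in every replicate are given for the 8 members with the smallest p in the mean deletion effect and the 4 with the smallest in each other comparison, and up to 3 genes from each further list. Some further members are given as well, chosen after their values were seen. The transcript length alternative was chosen after seeing the data. Transcript lengths and gene positions are from GENCODE vM21 (mm10), promoters from RefSeq (GRCm38.p6).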

Additional observations from a re-analysis of the deposited data

Results flagged for a closer look

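Vhl, the substrate receptor of the ligase that marks HIF-1α (chr6:113623959-113631633, plus strand), differed in opposite directions between the deletion comparisons. It had 1150 and 1143 normalised counts in the WT replicates, 1663 and 1317 in KO, 1692 and 1219 in IL4-/- and 1157 and 1067 in IL4-/-KO. Both KO replicates lay above both WT replicates, and both IL4-/-KO replicates lay below both IL4-/- replicates, as for 3.7% of all genes. The libraries of KO replicate 2 had 1695 and 939, the repeat lying below both WT replicates. The interaction was -0.74 ± 0.44 on the log2 scale, with an unadjusted limma p of 0.136 and an adjusted p of 0.988, so limma did not call a difference between the backgrounds.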

How the results depend on the processing

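With 2 replicates per genotype no member passed the adjusted limma threshold, and counts at an unadjusted p of 0.05 moved with single replicates. KO minus WT (12 members called) gave 6 with only the genotypes compared, and DESeq2 called 6 at an adjusted p of 0.05. IL4-/-KO minus IL4-/- (1) gave 3 with the epithelial covariate, 2 with the length trend removed and 2 with only the genotypes compared, and 1 adjusted call by DESeq2. The mean deletion effect (9) gave 15 with the epithelial covariate; adjusted calls were 1 with quantile normalisation, 1 with the epithelial covariate, 1 with the length trend removed and 5 by DESeq2. IL4-/-KO minus KO (8) gave 4 without the trended prior, 5 with the repeat KO libraries only, 14 with only the genotypes compared and 14 by DESeq2, with 2 adjusted calls; its median of -0.85 was -0.59 with quantile normalisation and -0.38 with the epithelial covariate. IL4-/- minus WT (2) gave 4 with the length trend removed. The interaction (3) gave 5 with the repeat KO libraries only, and its median of -0.61 was -0.18 with the epithelial covariate. The causes were not tested. Over all genes, the mean effect gave 3 adjusted limma calls as first fitted and 8 with quantile normalisation. It gave 52 with the epithelial covariate, 4 with the length trend removed and 331 by DESeq2. Here and elsewhere, unadjusted calls over all genes were not counted under changed settings, so those member counts have no such share beside them.

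Leaving out each replicate in turn gave, for KO minus WT, a median of 0.18 to 0.72 and 6 to 15 unadjusted calls. The ranges were 0.0049 to 0.22 and 1 to 3 for IL4-/-KO minus IL4-/-, 0.11 to 0.43 and 5 to 13 (0 to 1 adjusted) for the mean effect, -0.85 to -0.67 and 3 to 16 for IL4-/-KO minus KO, and -0.94 to -0.089 and 0 to 9 for the interaction. For IL4-/- minus WT they were -0.49 to 0.31 and 2 to 8, and the median changed sign without WT replicate 1 (0.31) and without IL4-/- replicate 1 (0.093). With the lone replicate of a genotype, the fit assumes it varies like the others. Slc2a3 in the mean effect passed under quantile normalisation (limma adjusted p 0.0302), the epithelial covariate (0.0144), the length trend removed (0.0109), DESeq2 (1.30e-10) and without WT replicate 2 (0.0224). Quantile normalisation moved the median of all genes by 0.106 in KO minus WT and 0.127 in the mean effect, and the repeat KO libraries alone by -0.20 in KO minus WT.

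With the replicate number as a block the medians stayed at 0.33, 0.10, 0.28, -0.85, -0.18 and -0.61, and unadjusted calls were 11 in KO minus WT, 1 in IL4-/-KO minus IL4-/-, 8 in the mean effect, 6 in IL4-/-KO minus KO, 2 in IL4-/- minus WT and 3 in the interaction. The block gave Slc2a3 a limma adjusted p of 0.216 in the mean effect. The deviations of same-numbered replicates had correlations from -0.36 to 0.24 between genotypes, so the numbers were not taken to pair the samples.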
